A study of Rattus norvegicus with 9 samples.

Results

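The genes described here are 10 genes of mechanosensing and load response in the rat tibia: the stretch-gated channels Piezo1 and Piezo2, the gap junction protein Gja1 (connexin 43), the transcriptional regulators Yap1, Wwtr1 (TAZ) and Vgll4, the matricellular proteins Ctgf (Ccn2) and Cyr61 (Ccn1), and the inducible enzymes Ptgs2 (cyclooxygenase 2) and Nos2 (inducible nitric oxide synthase). They were listed by name for their roles, by a rule that uses no measured value but was set with earlier results of these data known. The deposited tables listed 22589 genes, of which 14520 had enough counts to be tested, and all 10 genes were among these. RNA sequencing was performed on the left tibias of 9 female Sprague-Dawley rats, which were 9 weeks old at purchase, with 3 rats in each of 3 groups. The Sham group had a sham operation in which a small piece of fat was removed. The NE/Ovx group had bilateral ovariectomy and no exercise. The RE/Ovx group had the same ovariectomy and then climbed a ladder with a load on the tail, 5 days per week for 12 weeks, the load being raised stepwise up to the body weight of the rat. All tibias were taken 24 weeks after the operation and freed of skin, muscle, ligaments and tendons. Bone and marrow were extracted together, so that in these bulk samples fewer cells of a type and less RNA per cell cannot be told apart.

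Bone cells sense deformation of the matrix and flow of the fluid around them. Piezo channels open when the membrane is stretched and let calcium in, and connexin 43 channels pass small molecules between neighbouring bone cells. On a stiff or stretched substrate YAP and TAZ move to the nucleus, where they bind TEAD factors and switch on genes such as Ctgf and Cyr61, while Vgll4 competes with them for TEAD. Prostaglandins made by cyclooxygenase 2, and nitric oxide, are early signals that loaded bone cells release.

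Ctgf and Cyr61 are the classical readouts of YAP and TAZ, and their promoters are shown because the levels of both genes are set beside those of Yap1 and Wwtr1 below. Each sequence gives the 250 bases before the transcript start in the RefSeq annotation of build GRCr8, from 5′ to 3′ on the strand of the gene. Capitals mark the matches to the TEAD motif GGAATG, searched on both strands (on the reverse strand it reads CATTCC). The Ctgf window lies at chr1:22624615-22624864 and that of Cyr61 at chr2:237225690-237225939, both on the minus strand.
Ctgf: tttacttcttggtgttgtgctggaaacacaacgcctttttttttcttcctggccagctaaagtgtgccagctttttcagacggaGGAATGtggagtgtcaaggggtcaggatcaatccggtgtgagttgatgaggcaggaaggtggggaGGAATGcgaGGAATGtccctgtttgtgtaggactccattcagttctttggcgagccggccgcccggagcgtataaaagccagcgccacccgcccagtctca
Cyr61: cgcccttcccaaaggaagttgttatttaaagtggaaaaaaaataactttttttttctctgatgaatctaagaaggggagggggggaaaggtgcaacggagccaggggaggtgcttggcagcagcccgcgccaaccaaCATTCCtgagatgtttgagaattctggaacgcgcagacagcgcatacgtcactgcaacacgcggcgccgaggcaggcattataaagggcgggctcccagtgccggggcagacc

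The Ctgf window held 3 TEAD matches, beginning 166, 101 and 92 bases before the start. The Cyr61 window held 1 match, on the reverse strand at 113 bases. Over all 33469 rat promoters of the same length, 12.1% held at least 1 TEAD match, and 27 promoters (0.0807%) held 3 or more. Of the other genes, Yap1 had 1 match and the second of 3 annotated Vgll4 starts had 2. No match to these letters lay in the windows of Piezo2, Gja1, Wwtr1, Ptgs2 or the other Vgll4 starts. The AP-1 motif TGANTCA, found in 6.34% of promoters, occurred once, 58 bases before the Gja1 start, and the cyclic AMP response element TGACGTCA, found in 1.59%, occurred in none of the 10 windows. TATAAA, found in 12.9% of promoters, lay 31 bases before the start in Ctgf and 34 bases before it in Cyr61. A match is a run of letters and not evidence of binding. No entry was at hand for Piezo1 and Nos2.

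**Figure D1:**
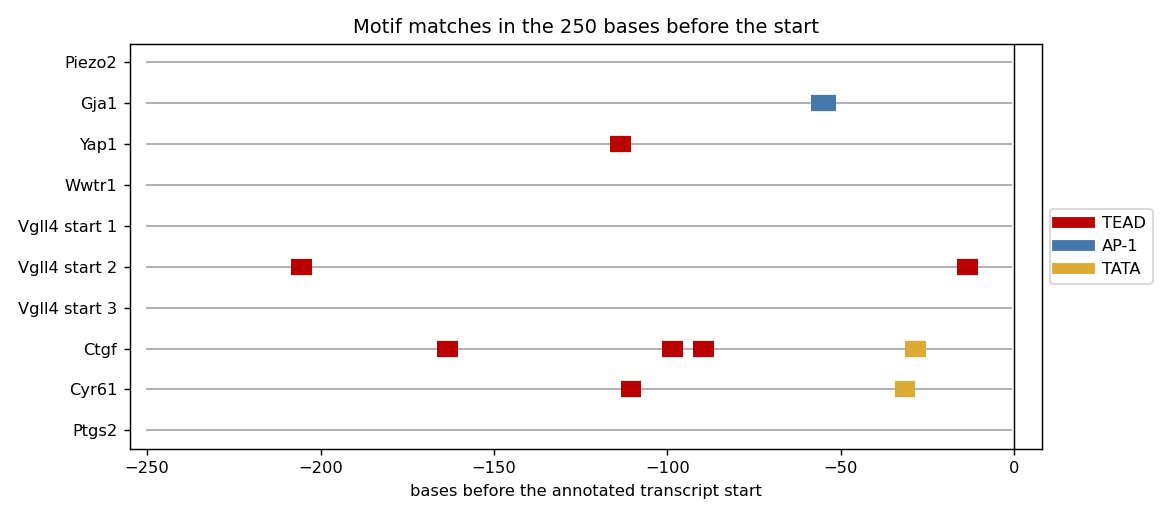
Motif matches in the 250 bases before each annotated start, drawn as coloured boxes on a line for each start; the x axis gives bases before the start. Ctgf carries 3 TEAD boxes and Cyr61 carries 1, and both carry a TATA box close to the start.

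The libraries held between 12297992 and 16671533 counts, with overlapping ranges in the 3 groups. Levels are given below in CPM, the count relative to the library size scaled by TMM. A p-value weighs the difference between groups against the spread between rats. For a single gene, exact permutation of 3 and 3 rats gives no p below 0.1, so the tests are edgeR's quasi-likelihood tests, fitted on all 9 rats and adjusted by Benjamini-Hochberg over the 14520 genes. A gene is called when this adjusted p is under 0.05. Lists of cell type markers were set beside the genes, and no marker was at 0 in any library. The osteoblast and osteocyte markers were present in every library, as were markers of marrow blood cells and of skeletal muscle, although muscle had been removed. The summed levels of some lists moved with the groups. Osteoblast markers summed to 6396-8943 CPM in the Sham group, 15583-25955 CPM in NE/Ovx and 17502-27578 CPM in RE/Ovx. Stromal markers ranged over 1616-2020, 2268-2775 and 2057-3866 CPM, and chondrocyte markers over 682-1344, 1573-2424 and 2008-2202 CPM. Adipocyte markers ranged over 55.6-119, 225-327 and 318-483 CPM. Neutrophil markers ran the other way, at 6824-11708, 4983-5842 and 3705-5801 CPM. Osteocyte (150-278, 175-351 and 266-287 CPM), endothelial (628-681, 624-643 and 641-717 CPM) and macrophage markers (451-745, 561-607 and 508-604 CPM) overlapped between the 3 groups in their sums. Skeletal muscle markers summed to 4970-14944, 13110-16760 and 6258-9380 CPM, and erythroid markers to 29256-37185, 19902-26059 and 14356-29173 CPM. Megakaryocyte markers summed to 631-986, 514-635 and 548-673 CPM, B cell markers to 74.5-259, 307-515 and 401-471 CPM, and T cell markers to 14.4-20.8, 21.1-23.7 and 21.3-31.6 CPM.

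Per unit of gene length the 10 genes spanned a wide range. Gja1 had the highest mean over the 9 rats, 75.9 FPKM (fragments scaled by gene length and library depth), followed by Ctgf at 49.9, Cyr61 at 40.6 and Piezo1 at 21.7 FPKM. Vgll4 (11.1 FPKM), Wwtr1 (10.9) and Yap1 (9.19) formed a middle tier, and Nos2 (5.08), Ptgs2 (2.71) and Piezo2 (0.874) were the lowest. Piezo1 lay below Cyr61 and above Vgll4 in all 9 rats without overlap of their ranges, and the ranges of Ptgs2 and Piezo2 did not overlap either. Vgll4 exceeded Wwtr1 in 6 of 9 rats and Yap1 exceeded Nos2 in 7 of 9, so that these neighbours did not differ beyond their spread. The genes also differed in how much they varied. The coefficient of variation of CPM over the 9 rats was 47.8% for Nos2, 37.2% for Ctgf and 35.8% for Gja1, but 10.9% for Piezo1 and 13.4% for Vgll4.

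**Figure D2:**
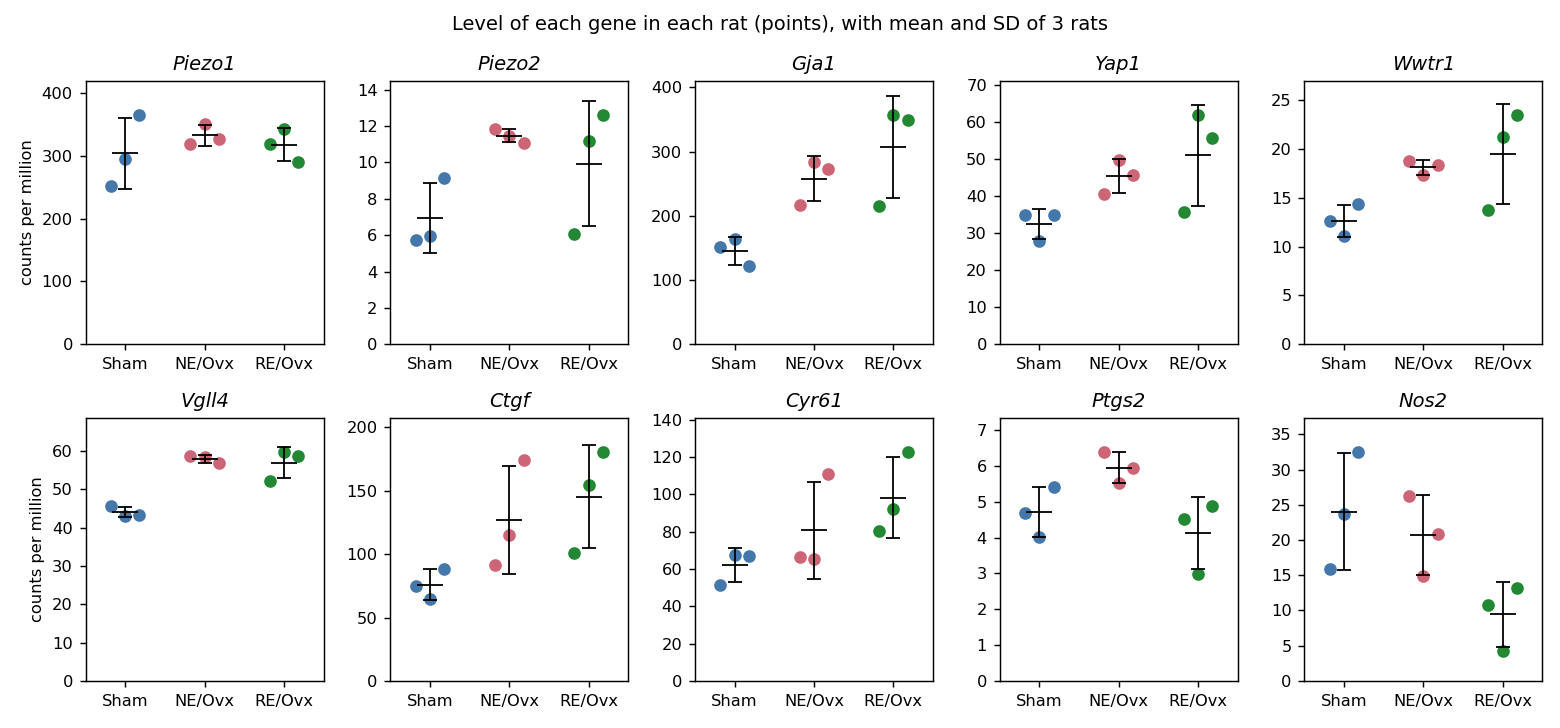
Level of each of the 10 genes in each rat, in CPM on an axis from 0; points are rats, bars the mean and SD of 3 rats per group. For Gja1 and Vgll4 every ovariectomized rat lies above every Sham rat, Piezo1 overlaps in the 3 groups, and for Nos2 the 3 RE/Ovx rats (4.28, 10.8 and 13.2 CPM) lie below the other 6.

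The first comparison asks what ovariectomy alone did, as NE/Ovx against Sham. None of the 10 genes passed the adjusted threshold, against 178 of 14520 genes (1.23%). The thresholds of the study were an unadjusted p under 0.05 and a fold over 1.2 or under 0.83. The study set them on DESeq2 results, and here and below they are set on the edgeR tests, so the counts are not the study's own. By these thresholds 6 genes were higher and 0 lower (Piezo2, Gja1, Yap1, Wwtr1, Vgll4 and Ctgf), against 11.3% of all genes higher and 6.52% lower. In 7 of the 10 genes all 3 NE/Ovx rats lay above all 3 Sham rats, and in 0 below, against 13.9% and 11.4% of all genes. The log2 fold change was above 0 for 9 of the 10, with a median of 0.44, against 50.4% of all genes and a median of 0.0029. The second comparison asks what the exercise added, as RE/Ovx against NE/Ovx. No gene of 14520 passed the adjusted threshold (0%), the smallest adjusted p being 0.537 in edgeR. At an unadjusted p under 0.05 there were 767 genes (5.28%), among them 2 of the 10. DESeq2 called 5 genes on all 9 rats and 154 on the 2 groups alone without a filter, edgeR on the 2 groups called 1, and limma on FPKM called 0. None of these calls was one of the 10. By the thresholds of the study 0 of the 10 were higher and 2 lower, Nos2 and Ptgs2, against 1.54% and 3.15% of all genes. The same 2 were the genes without overlap, both lower, against 6.84% of all genes lower and 4.75% higher. The median log2 fold change of the 10 was 0.038, against 0.0079 for all genes.

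The third comparison sets the exercised ovariectomized rats against the Sham rats, and so holds the operation and the exercise together. Gja1 and Vgll4 rose, 2 of 10 genes past the adjusted threshold, against 8.06% of all genes. By the thresholds of the study 6 were higher (Gja1, Yap1, Wwtr1, Vgll4, Ctgf and Cyr61) and 1 lower (Nos2), against 14% and 9.17% of all genes. Groups did not overlap for 5 genes that were higher and 1 that was lower, against 14.9% and 13% of all genes. The median log2 fold change was 0.57, against −0.0078 for all genes. The comparisons against Sham share the 3 Sham rats, and those with NE/Ovx share the 3 NE/Ovx rats, so that they are not independent of each other. The count of 2 depended on single rats: it was 6 without RE/Ovx rat 3, 0 without RE/Ovx rat 5 or rat 8, and 1 without Sham rat 12 or rat 8. RE/Ovx rat 3 was the lowest of its group for Piezo2, Gja1, Yap1, Wwtr1, Vgll4, Ctgf and Cyr61. The same rat was also the lowest of its group for the summed stromal, osteoblast, osteocyte, chondrocyte, adipocyte, B cell and T cell markers. For the summed erythroid, megakaryocyte and macrophage markers it was the highest of its group.

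**Figure D3:**
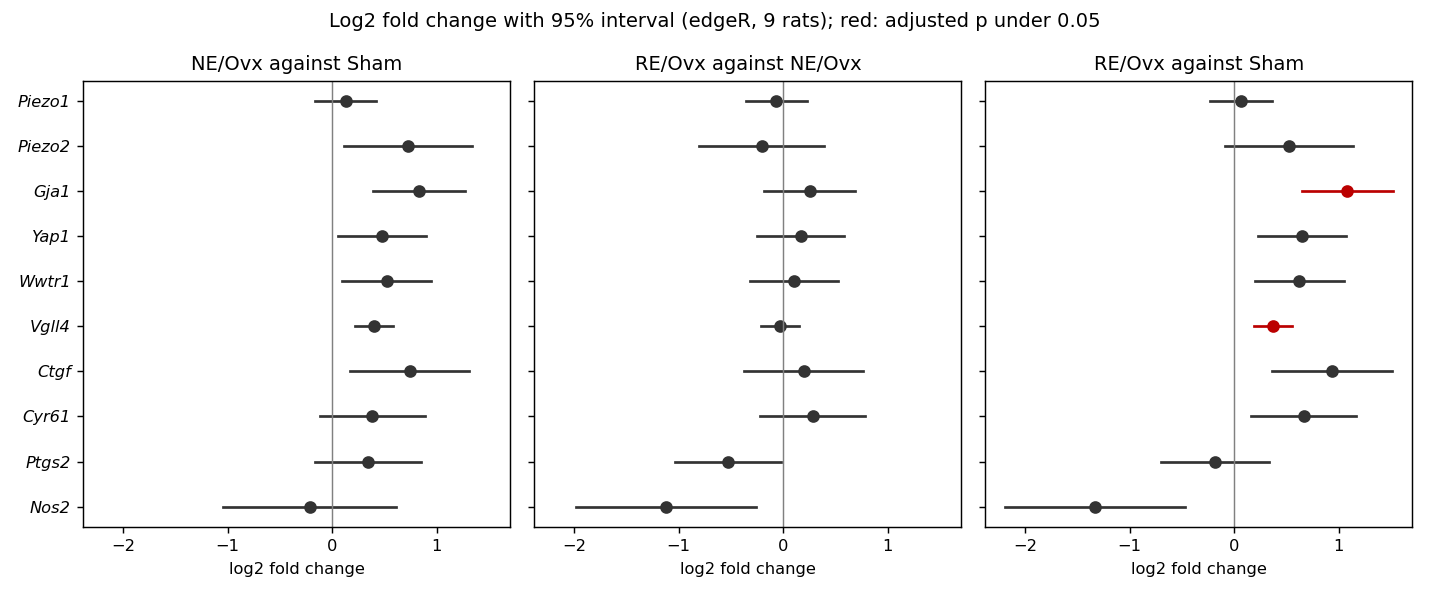
Log2 fold change of each gene with its 95% interval in the 3 comparisons, from the edgeR fit of 9 rats; red marks an adjusted p under 0.05. Red points appear only for Gja1 (1.08) and Vgll4 (0.37) in RE/Ovx against Sham, and in RE/Ovx against NE/Ovx the intervals of Nos2 and Ptgs2 lie below 0.

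Piezo1, the main stretch-activated channel of osteoblasts and osteocytes, did not separate the groups. Here and below, values are in the order of Sham rats 12, 7 and 8, NE/Ovx rats 6, 8 and 9, and RE/Ovx rats 3, 5 and 8. The Sham rats had 364, 252 and 296 CPM, the NE/Ovx rats 319.6, 351 and 327 CPM, and the RE/Ovx rats 319.7, 343 and 291 CPM. The highest and the lowest rat were both Sham rats, and the log2 fold change was 0.13 (95% interval −0.16 to 0.42) in NE/Ovx against Sham and −0.065 (−0.36 to 0.23) in RE/Ovx against NE/Ovx. Piezo2, known best from sensory neurons, was low, with between 74 and 196 counts per library. It had 9.16, 5.71 and 5.96 CPM in the Sham rats, 11.8, 11.5 and 11.1 CPM in the NE/Ovx rats, and 6.06, 11.2 and 12.6 CPM in the RE/Ovx rats. All 3 NE/Ovx rats lay above all Sham rats, while RE/Ovx rat 3 lay among the Sham rats. The log2 fold change in NE/Ovx against Sham was 0.73 ± 0.27 (SE), with an adjusted p of 0.176 by edgeR. Against Sham the RE/Ovx value was 0.52 (adjusted p = 0.271). It ran from 0.31 without RE/Ovx rat 8 (adjusted p = 0.653) to 0.78 without RE/Ovx rat 3 (adjusted p = 0.0475). The FPKM of Piezo1 over that of Piezo2 was 29.3-36.6 in the Sham rats and 19.9-22.5 in the NE/Ovx rats, and spanned 17.05-38.9 in the RE/Ovx rats.

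Gja1, the connexin that couples osteocytes and osteoblasts, had the highest log2 fold change of the 10 genes in both comparisons with Sham. The Sham rats had 122, 151 and 163 CPM, the NE/Ovx rats 218, 283 and 273 CPM, and the RE/Ovx rats 215, 356 and 349.7 CPM. Every ovariectomized rat was above every Sham rat, whereas the NE/Ovx and RE/Ovx ranges overlapped. It rose in RE/Ovx against Sham by 1.08 ± 0.20 (SE) on the log2 scale, a fold of 2.12, with an adjusted p of 0.0157 in edgeR. This call was lost without RE/Ovx rat 5 (adjusted p = 0.0657) or rat 8 (0.0635). In NE/Ovx against Sham the log2 fold change was 0.83 ± 0.20 (SE), with an adjusted p of 0.0700, and the alternatives in which no rat was left out gave adjusted p-values from 7.05e-05 to 0.0851. Between RE/Ovx and NE/Ovx it was 0.25, with an interval from −0.18 to 0.68. The sum of the osteoblast markers was likewise lower in every Sham rat than in every ovariectomized rat. Of the 7 single markers, the groups did not overlap for 2 in NE/Ovx against Sham and 4 in RE/Ovx against Sham. In each comparison with Sham 6 had values above 0 and 2 passed the adjusted threshold. The part of these markers in the difference of Gja1 was not tested.

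Yap1 and Wwtr1 encode YAP and TAZ, paralogous coactivators that relay mechanical state to transcription. Yap1 had 34.8, 34.9 and 27.8 CPM in the Sham rats, 40.5, 49.7 and 45.8 CPM in the NE/Ovx rats, and 35.7, 61.7 and 55.5 CPM in the RE/Ovx rats. Wwtr1 had 14.3, 12.6 and 11.04 CPM, then 18.7, 17.3 and 18.4 CPM, then 13.7, 21.2 and 23.4 CPM. For both genes all NE/Ovx rats were above all Sham rats, and RE/Ovx rat 3 was below all NE/Ovx rats. In NE/Ovx against Sham the log2 fold change was 0.48 ± 0.19 (SE; adjusted p = 0.192) for Yap1 and 0.52 ± 0.19 (adjusted p = 0.170) for Wwtr1. For RE/Ovx against Sham it was 0.65 (adjusted p = 0.0635) and 0.62 (adjusted p = 0.0741). With 1 rat left out these values ran from 0.48 to 0.85 for Yap1 (adjusted p from 0.00728 to 0.216) and from 0.46 to 0.82 for Wwtr1 (0.00908 to 0.262), and both passed without RE/Ovx rat 3. Against NE/Ovx the RE/Ovx values were 0.17 (−0.25 to 0.58) for Yap1 and 0.10 (−0.31 to 0.52) for Wwtr1. The pair kept a narrow ratio, with a Yap1 over Wwtr1 ratio of FPKM between 0.710 and 0.956 in the 9 rats.

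Vgll4, which binds TEAD factors in place of YAP and TAZ, had the smallest spread between rats of one group. The Sham rats had 43.3, 45.5 and 43.1 CPM, the NE/Ovx rats 58.7, 58.3 and 56.8 CPM, and the RE/Ovx rats 52.2, 59.7 and 58.7 CPM. Every ovariectomized rat was above every Sham rat. It rose in RE/Ovx against Sham by 0.37 ± 0.082 (SE) on the log2 scale, a fold of 1.29, with an adjusted p of 0.0277 in edgeR. The call was lost when 1 of 4 rats was left out, namely RE/Ovx rat 5 (adjusted p = 0.121), RE/Ovx rat 8 (0.111), Sham rat 12 (0.0616) or Sham rat 8 (0.0650). It was also lost in edgeR on the 2 groups (0.0669). In NE/Ovx against Sham the value was 0.40 ± 0.082 (SE; adjusted p = 0.0511), just outside the threshold, and between RE/Ovx and NE/Ovx it was −0.028 (−0.21 to 0.15). The coactivators and their competitor thus had values of one sign in the comparisons with Sham.

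Ctgf, the secreted protein whose promoter held 3 TEAD matches, had 88.4, 75.0 and 64.7 CPM in the Sham rats, 91.7, 115 and 174 CPM in the NE/Ovx rats, and 101, 155 and 180.5 CPM in the RE/Ovx rats. Every ovariectomized rat was above every Sham rat, though NE/Ovx rat 6 exceeded the highest Sham rat by little. The log2 fold change was 0.74 ± 0.26 (SE; adjusted p = 0.151) in NE/Ovx against Sham and 0.94 ± 0.26 (adjusted p = 0.0530) in RE/Ovx against Sham. The former was 0.43 without NE/Ovx rat 9 (adjusted p = 0.331). The latter ran from 0.75 without RE/Ovx rat 8 (adjusted p = 0.186) to 1.14 without RE/Ovx rat 3 (adjusted p = 0.0185). Cyr61, its relative with 1 match, had 67.2, 51.6 and 67.5 CPM in the Sham rats, 66.4, 65.1 and 111 CPM in the NE/Ovx rats, and 80.3, 91.9 and 123 CPM in the RE/Ovx rats. The RE/Ovx rats lay above the Sham rats, while 2 of 3 NE/Ovx rats lay within the Sham range. The log2 fold change was 0.38 ± 0.23 (SE; adjusted p = 0.370) in NE/Ovx against Sham and 0.66 ± 0.23 (adjusted p = 0.0997) in RE/Ovx against Sham. Without NE/Ovx rat 9 the first of these was 0.067 (adjusted p = 0.867), and with 1 rat left out the second ran from 0.47 to 0.79 (adjusted p from 0.0654 to 0.321). Exercised rats differed from unexercised ones by 0.19 (−0.37 to 0.76) for Ctgf and 0.28 (−0.22 to 0.78) for Cyr61, with 0.0025 to 0.50 and 0.086 to 0.59 when 1 rat was left out. In both genes NE/Ovx rat 9 and RE/Ovx rat 8 were the highest of their groups. The stromal markers, set beside both genes, were lowest among ovariectomized rats in RE/Ovx rat 3, at 2057 CPM against 3866 and 3341 CPM in RE/Ovx rats 5 and 8. Among ovariectomized rats, however, Ctgf was lowest in NE/Ovx rat 6 and Cyr61 in NE/Ovx rat 8. Of the Sham rats, rat 7 had the highest stromal sum (2020 CPM) but the lowest Cyr61. The part of the stromal markers in these differences was not tested.

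Ptgs2, the inducible enzyme of prostaglandin synthesis, was low, with 39 to 98 counts per library. It had 5.42, 4.68 and 4.03 CPM in the Sham rats, 6.39, 5.53 and 5.94 CPM in the NE/Ovx rats, and 4.51, 2.98 and 4.88 CPM in the RE/Ovx rats. All NE/Ovx rats were above all rats of both other groups. The log2 fold change was 0.34 ± 0.23 (SE; adjusted p = 0.433) in NE/Ovx against Sham and −0.52 ± 0.23 in RE/Ovx against NE/Ovx, where the unadjusted p was under 0.05 and the adjusted p was 0.924 in edgeR. Nos2, the inducible source of nitric oxide, had 32.5, 15.9 and 23.7 CPM in the Sham rats, 26.3, 14.9 and 20.8 CPM in the NE/Ovx rats, and 10.8, 4.28 and 13.2 CPM in the RE/Ovx rats. All RE/Ovx rats were below the other 6 rats, and RE/Ovx rat 5 was far below the rest, with 56 counts. Exercised against unexercised ovariectomized rats differed by −1.12 ± 0.38 (SE) on the log2 scale, a fold of 0.46, with an unadjusted p under 0.05 and an adjusted p of 0.921 in edgeR. Leaving out 1 rat at a time gave −1.45 to −0.77, and the alternatives gave adjusted p-values from 0.0895 to 0.970. Against Sham it was −1.33 ± 0.39 (SE; adjusted p = 0.0622). Between NE/Ovx and Sham it was −0.21 (−1.04 to 0.61). Neutrophil markers, set beside Nos2, summed to 5086, 3705 and 5801 CPM in RE/Ovx rats 3, 5 and 8 and to 4983-5842 CPM in NE/Ovx, so that RE/Ovx rat 5 was the lowest for both. The Sham rats ran the opposite way. Sham rat 7 had the highest neutrophil sum (11708 CPM) with the lowest Nos2 of its group. Sham rat 12 had the lowest Sham sum (6824 CPM) with the highest Nos2. Macrophage markers were at 508-604 CPM in RE/Ovx and 561-607 CPM in NE/Ovx. Skeletal muscle markers did not overlap between RE/Ovx (6258-9380 CPM) and NE/Ovx (13110-16760 CPM), as was the case for Ptgs2 and Nos2. Sham rat 12 and NE/Ovx rat 6 were the highest of their groups for the muscle sum and for both genes. In RE/Ovx, however, rat 5 had the highest muscle sum (9380 CPM) with the lowest Ptgs2 and Nos2. The muscle sum of Sham rat 8 (4970 CPM) was below every RE/Ovx rat, while its Nos2 (23.7 CPM) was above every RE/Ovx rat. The part of these cell types in the levels of Ptgs2 and Nos2 was not tested.

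**Figure D4:**
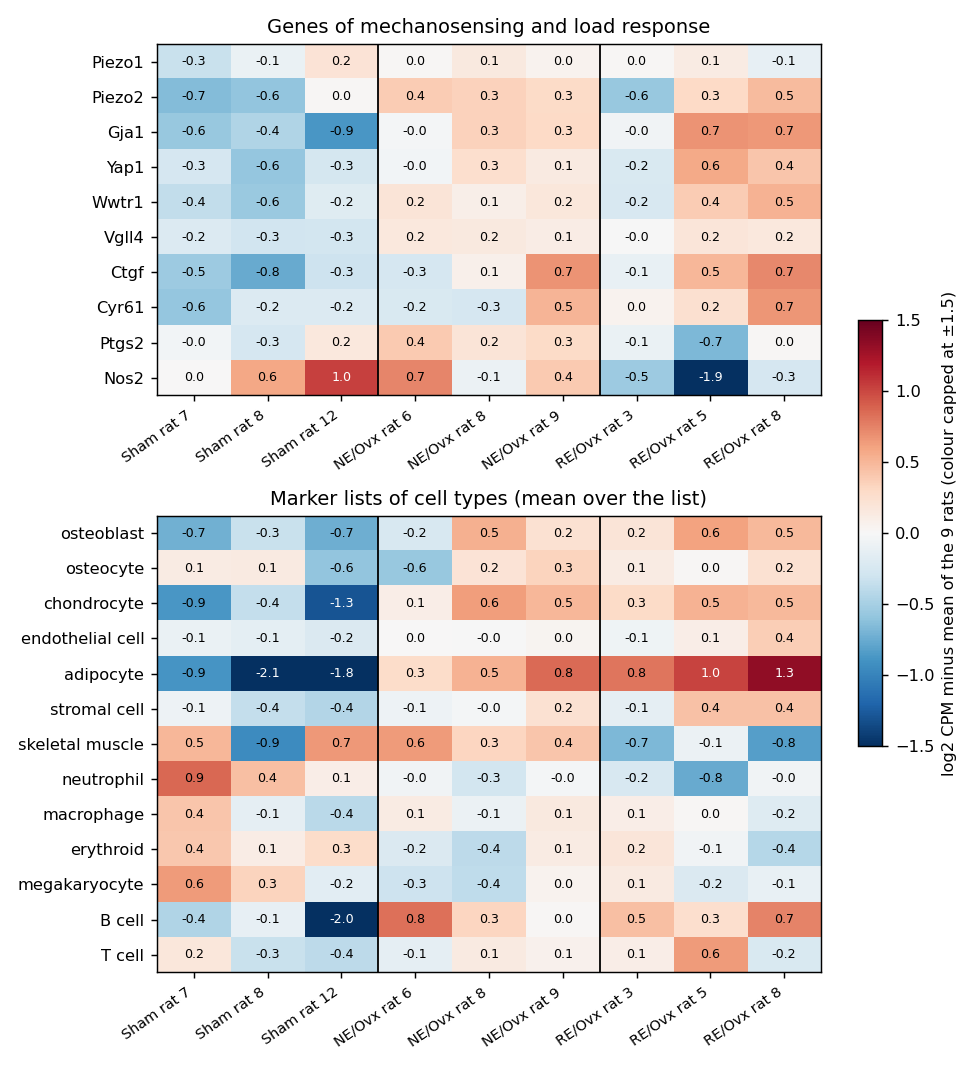
Log2 CPM of the 10 genes (top) and mean log2 CPM of each marker list (bottom) in the 9 rats, as the difference from the mean of the 9 rats; colour is capped at ±1.5 and the value is printed in each cell. The genes from Piezo2 to Cyr61 are mostly blue in the Sham rats, near 0 or blue in RE/Ovx rat 3 and red in RE/Ovx rats 5 and 8, and Nos2 is darkest blue in RE/Ovx rat 5 (−1.9).

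Across the 9 rats Gja1, Yap1, Wwtr1, Vgll4 and Ctgf correlated with each other more closely than Yap1, Wwtr1 or Vgll4 did with Cyr61. Pearson's r of log2 CPM was 0.93 (Spearman's rho 0.87) for Yap1 and Wwtr1, 0.91 (0.90) for Piezo2 and Wwtr1, 0.91 (0.85) for Gja1 and Vgll4, and 0.88 for Gja1 and Yap1 (rho 0.95), Yap1 and Ctgf (0.88) and Ctgf and Cyr61 (0.70). Cyr61 had r of 0.62 (rho 0.45) to Yap1, 0.70 (0.53) to Wwtr1 and 0.57 (0.28) to Vgll4. The r of Nos2 was −0.67 to Gja1, −0.64 to Yap1, −0.41 to Wwtr1, −0.33 to Cyr61 and −0.10 to Piezo2, and 0.77 to Ptgs2. These pairs come from 45, given as a description, and all the points share the same 9 libraries and the same 3 groups. After the group means were taken out, r was 0.83 for Yap1 and Wwtr1, 0.79 for Ctgf and Cyr61, 0.23 for Yap1 and Cyr61 and 0.018 for Vgll4 and Cyr61. The contrast with Cyr61 then did not hold for every pair, as r was 0.44 for Wwtr1 and Cyr61 but 0.39 for Vgll4 and Ctgf. For Nos2 the r within groups was −0.51 to Gja1, 0.0068 to Wwtr1, −0.041 to Ctgf, 0.36 to Cyr61 and 0.86 to Ptgs2. Among the 14519 other genes tested, those closest to Yap1 were Anxa5 and Bmpr2, a receptor for bone morphogenetic proteins, both with r of 0.99. Gja1 was closest to Kirrel and Rcn3 (both 0.99), Ctgf to Fam149a (0.99) and Gas1 (0.98), and Wwtr1 to Kif1a (0.99) and Sh3bp4 (0.98). Cyr61 was closest to Hs2st1 (0.98) and LOC100910207 (0.94), and Vgll4 to Kcnn2 and Arsi (both 0.99). Piezo1 was closest to Cyp27b1, the enzyme that makes active vitamin D (0.95), and Tldc1 (0.94), and Piezo2 to Kcne4 and Asap2 (both 0.97). Ptgs2 was closest to Polr3b (0.93) and Tbc1d8 (0.92), and Nos2 to Aknad1 (0.96) and Tnfrsf1b, a receptor for tumour necrosis factor (0.94).

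The wider pathways were described by 10 lists of other genes, 169 in all, of which 155 were tested. In NE/Ovx against Sham 1 of these rose and 1 fell, against 1.23% of all genes called. Wisp1, another secreted CCN protein and a relative of Ctgf, rose from 6.34 ± 1.503 to 15.3 ± 4.31 CPM (SD, n = 3 each), by 1.27 ± 0.24 (SE) on the log2 scale with an adjusted p of 0.0386. Pde5a, which breaks down the cyclic GMP made in response to nitric oxide, fell from 453 ± 21.8 to 296 ± 10.9 CPM, with a log2 fold change of −0.61 ± 0.093 (SE) and an adjusted p of 0.0238. Each call was lost when any 1 of 4 rats was left out: NE/Ovx rat 8 or 9 or Sham rat 7 or 12 for Wisp1 (adjusted p up to 0.137), and NE/Ovx rat 6, 8 or 9 or Sham rat 12 for Pde5a (up to 0.0876). With all rats kept, Pde5a passed in all 10 alternatives, whereas Wisp1 missed in edgeR on the 2 groups and in limma on log2(FPKM + 1) (adjusted p up to 0.0686). All 4 other CCN genes had values above 0, with a median of 1.14, and 3 of these were not called.

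**Figure D5:**
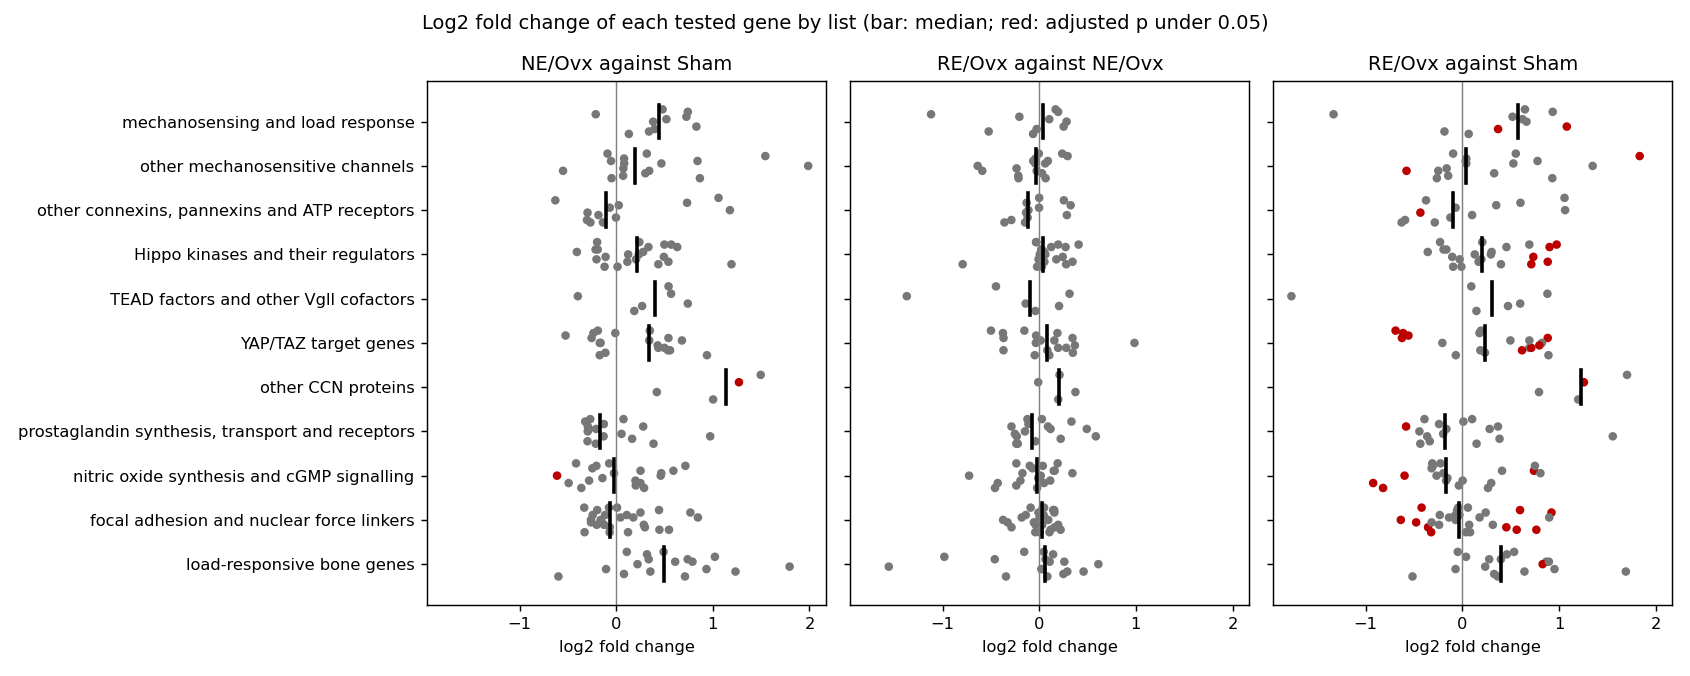
Log2 fold change of every tested gene of the 10 members and of the 10 pathway lists in the 3 comparisons, with the median as a bar; red marks an adjusted p under 0.05. Against Sham the other CCN proteins, a list of 4 genes, have the highest medians (1.14 in NE/Ovx and 1.23 in RE/Ovx), and no point is red in RE/Ovx against NE/Ovx.

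None of the 16 other mechanosensitive channels was called in NE/Ovx against Sham, with a median of 0.19. The closest were Kcnk2, a stretch-sensitive potassium channel, at 5.35 ± 0.228 against 1.84 ± 0.694 CPM (SD; log2 fold change 1.54, adjusted p = 0.0577), and Trpc6 at −0.55 (adjusted p = 0.0915). None of the 12 other connexins, pannexins and ATP receptors was called, with a median of −0.10. Panx3, an osteoblast pannexin, had 1.18 (adjusted p = 0.123), and the ATP receptor P2ry1 had −0.30 (adjusted p = 0.109). Of the 22 Hippo kinases and their regulators 0 were called, and the median was 0.22. Mob1b, a cofactor of the LATS kinases, had −0.41 (adjusted p = 0.0751), and Amotl2, which holds YAP in the cytoplasm, had 0.54 (adjusted p = 0.156). The 6 TEAD and other Vgll genes had a median of 0.40 with 0 called, Tead3 at 0.74 (adjusted p = 0.155) and Tead4 at 0.54 (adjusted p = 0.245). Among 19 further YAP and TAZ target genes 0 were called, with a median of 0.34, Gadd45a at −0.53 (adjusted p = 0.0539) and Rbms3 at 0.53 (adjusted p = 0.0883).

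On the side of the inducible enzymes, the 16 genes of prostaglandin synthesis, transport and reception had a median of −0.17 with 0 called, and both Ptges3 (−0.28, adjusted p = 0.169) and Abcc4 (−0.30, adjusted p = 0.273) had values below 0. The 19 genes of nitric oxide and cyclic GMP had a median of −0.024, with Pde5a as the call. The 27 genes of focal adhesions and nuclear force linkers had a median of −0.068 with 0 called, Fermt2 (kindlin 2), an activator of integrins, at 0.77 (adjusted p = 0.069) and Syne2 (nesprin 2) at 0.55 (adjusted p = 0.0743). The 17 genes known to respond to load in bone had a median of 0.49 with 0 called, Timp1 at 0.93 (adjusted p = 0.107) and Fos, an early transcription factor, at 1.02 (adjusted p = 0.178). Fos rested on NE/Ovx rat 9, without which its value was 0.32 (adjusted p = 0.468).

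Between exercised and unexercised rats 0 of the 155 genes were called by edgeR and 13 had an unadjusted p under 0.05, against 5.28% of all genes. DESeq2 called 0 on all 9 rats and 3 on the 2 groups, and limma called 0. By the thresholds of the study 3 were higher and 10 lower, of 155, against 1.54% and 3.15% of all genes, and the median was 0.014 against 0.0079. Igf1, a growth factor of bone formation, had 141 ± 20.7 CPM in the exercised and 92.3 ± 8.68 CPM in the unexercised rats (SD, n = 3 each), with a log2 fold change of 0.61. The prostaglandin F receptor Ptgfr had 30.8 ± 4.62 against 21.9 ± 2.30 CPM (0.49). On the lower side were the kinase Nuak2, a YAP target, with 30.0 ± 4.43 against 42.5 ± 6.37 CPM (−0.50), the nuclear envelope linker Sun2 (−0.33) and Ddah1, which degrades an inhibitor of nitric oxide synthases (−0.46). These 5 did not overlap between the groups, and each had an unadjusted p under 0.05 and an adjusted p of 0.921. They were named for the smallest p of their lists. Of the 155 genes, 5 were higher and 16 lower without overlap, against 4.75% and 6.84% of all genes. Vgll2 had −1.37 at a level of 0.774 ± 0.142 CPM in the exercised rats, and Cacna2d1 had −0.59, both with an adjusted p of 0.924. In this comparison all 8 skeletal muscle markers had values below 0, with a median of −0.96 and 0 called. The part of muscle in the values of the lists was not tested. In the load-responsive list, which holds Igf1, 2 genes were lower by the thresholds of the study, Fos (−0.98) and Fosb (−1.56). Fos had 24.3 ± 6.03 against 48.1 ± 31.6 CPM, and Fosb 9.26 ± 2.40 against 27.2 ± 32.1 CPM. Both overlapped between the groups and had an adjusted p of 0.924 in edgeR. Amotl2 (0.34) had the smallest p of the Hippo list, though not of the YAP and TAZ targets, to which it also belongs. Wisp2 (0.37) and P2rx4 (−0.29) had the smallest p of their lists. These 3 genes did not have the largest fold change in each list, and their adjusted p-values in edgeR were 0.957, 0.968 and 0.968.

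Of the 155 genes 31 were called in RE/Ovx against Sham, 16 higher and 15 lower, against 8.06% of all genes. This count was 55 without RE/Ovx rat 3 and 0 without RE/Ovx rat 5 or rat 8, and it ranged over 14-18 when a Sham rat was left out. The genes named here were chosen after their values were seen. In the Hippo list 5 rose and 0 fell: Ajuba (log2 fold change 0.98, adjusted p = 0.0381), Fat4 (0.90, 0.0478), Amotl2 (0.88, 0.0246), Dchs1 (0.73, 0.0406) and Ptpn14 (0.71, 0.0294). Among the YAP and TAZ targets 4 rose and 4 fell, so that the list moved in both directions. Those that rose were Amotl2 and Ptpn14, which belong to both lists, Ccdc80 (0.80, adjusted p = 0.0166) and Rbms3 (0.62, 0.0306). Those that fell were Nuak2 (−0.69, adjusted p = 0.0210), Dock5 (−0.63, 0.0181), Myof (−0.61, 0.0256) and Gadd45a (−0.56, 0.0204). Of the 6 TEAD and Vgll genes 0 were called.

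Focal adhesion and nuclear linker genes were likewise divided in RE/Ovx against Sham, with 5 higher and 5 lower. Fermt2 (0.92, adjusted p = 0.0192), Syne2 (0.77, 0.0143), Bcar1 (0.60, 0.0328), Parva (0.56, 0.0428) and Mkl2 (0.46, 0.0447) rose. Syne1 (−0.64, adjusted p = 0.0376), Sun2 (−0.48, 0.0211), Zyx (−0.42, 0.0277), Pxn (−0.36, 0.0410) and Vcl (−0.32, 0.0398) fell. In the nitric oxide list, to which Nos2 is related, Ass1, which regenerates the substrate arginine, fell (−0.92, adjusted p = 0.0247), as did Ddah1 (−0.82, 0.0198) and Pde5a (−0.60, 0.0114), while Ddah2 rose (0.74, 0.0357). Ptgs1, the constitutive counterpart of Ptgs2, fell from 141 ± 21.4 to 94.2 ± 15.9 CPM (−0.58, adjusted p = 0.0372). Of the other lists, Kcnk2 (1.84, adjusted p = 0.0157), Wisp1 (1.26, 0.0182) and Igf1 (0.83, 0.0300) rose, and Trpc6 (−0.58, 0.0435) and P2ry1 (−0.43, 0.0210) fell. In this comparison all 6 adipocyte, 3 of 6 chondrocyte, 2 of 7 osteoblast, 2 of 7 endothelial, 1 of 6 stromal and 1 of 7 B cell markers rose, 4 of 7 tested neutrophil and 1 of 6 megakaryocyte markers fell, and their part in the counts of the lists was not tested.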

How the data were processed

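RNA of 9 tibias was read from rRNA-depleted stranded libraries. The authors deposited raw read counts per gene and FPKM values for each rat. Per the submitters' processing notes, Trimmomatic, Bowtie2, HISAT2, StringTie and DESeq were used with build Rnor_6.0; their versions, and whether the counting used strand, are not given in the sources used here, so reads of a gene and an antisense or overlapping partner may be mixed. From the deposited counts, genes were kept by filterByExpr (14520 of 22589), scaled by TMM (factors 0.962-1.04) and tested in edgeR 4.0.16 (R 4.3.3) with glmQLFit and glmQLFTest, in 1 fit of 9 rats by group, with no covariate. The common biological coefficient of variation was 0.173. CPM used TMM library sizes, and log2 CPM a prior count of 2. The deposited FPKM served for levels between genes and for limma 3.58.1. DESeq2 1.42.0, other scalings, other filters, fits of 2 groups, limma on log2(FPKM + 1) and log2(FPKM + 0.1), and leaving out each rat were the alternatives. The script was tested on simulated data. Depth was 12297992-16671533 counts per library.

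All 10 genes were named in each comparison. For each pathway list, up to 4 called genes with the smallest p in NE/Ovx against Sham were named, or else the 2 with the smallest p, and the 1 with the smallest p in RE/Ovx against NE/Ovx. Outside this rule, Fos and Fosb were named in RE/Ovx against NE/Ovx, to show other values of their list. In RE/Ovx against Sham all 31 called genes of the lists were named. For each of the 10 genes, the 2 with the highest Pearson r were also named. Members and lists were chosen with earlier results of these data known. Of the listed genes, Arhgef17 and Trac had no row, and 14 pathway genes fell below the count filter. Ctgf and Cyr61 were matched to RefSeq as Ccn2 and Ccn1. Promoters of 8 of the 10 genes came from RefSeq build GRCr8, which is not the build of the files, and serve as sequence only. Python 3.11.15 was used for motifs and matplotlib 3.10.9 for figures.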

Additional observations from a re-analysis of the deposited data

How the results depend on the processing

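No paired analysis was possible because the groups shared only the number 8, and a number names a rat within its group. Genes near 1 CPM are limited by counting. The count of the 10 genes called in NE/Ovx against Sham (0) became 2 with DESeq2 on all 9 rats, 3 with DESeq2 on the 2 groups, 1 with library totals and 1 with edgeR on the 2 groups, and stayed at 0 when a rat was left out. In RE/Ovx against Sham (2) it became 7, 6 and 4 with DESeq2 on all rats, DESeq2 on the 2 groups and library totals, and 0-6 when a rat was left out. In RE/Ovx against NE/Ovx it was 0 in all of these settings. For the pathway lists, the count of 2 in NE/Ovx against Sham became 20 (DESeq2), 22 (DESeq2 on the 2 groups), 1 (limma, log2(FPKM + 1)) and 0-2 with a rat left out. The 0 in RE/Ovx against NE/Ovx became 3 with DESeq2 on the 2 groups, and the 31 in RE/Ovx against Sham became 53 (DESeq2), 15 (edgeR on the 2 groups), 20 and 19 (limma with pseudocounts 1 and 0.1) and 0-55 with a rat left out. Over all genes, the 178 in NE/Ovx against Sham became 1014 (DESeq2), 885 (DESeq2 on the 2 groups), 112 (limma, log2(FPKM + 1)) and 9-181 with a rat left out. The 0 in RE/Ovx against NE/Ovx became 5, 154 and 1 (DESeq2, DESeq2 on the 2 groups, edgeR on the 2 groups), and the 1171 in RE/Ovx against Sham became 1964 (DESeq2), 559 (edgeR on the 2 groups) and 103-1749 with a rat left out. The log2 fold change changed sign for Piezo1 against Sham without Sham rat 7 (−0.0023 in NE/Ovx and −0.056 in RE/Ovx, with highs of 0.26 and 0.21 without Sham rat 12), and for Nos2 in NE/Ovx against Sham without Sham rat 12 (0.049, the low being −0.45 without Sham rat 7). In RE/Ovx against NE/Ovx it did so for Piezo2 (0.052) and Vgll4 (0.030) without RE/Ovx rat 3, with lows of −0.42 and −0.058 without RE/Ovx rat 8, and for Wwtr1 without RE/Ovx rat 8 (−0.061, the high being 0.30 without RE/Ovx rat 3). The cause of these shifts was not tested. Where a rat was left out, the remaining 8 shared 1 estimate of the spread.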
